A study of Mus musculus with 14 samples.

Results

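Hepatocyte knockout of the splicing factor gene Srsf1 was examined in mice of 1 month of age, by comparing 2 knockout libraries with 2 control libraries across every gene whose mean over these 4 libraries reached 1 TPM. Another label field describes these mice as 5 weeks old. TPM is the abundance of a transcript relative to every other transcript of the library after allowing for length, scaled so that each library has the same total, and a gene's TPM here is the sum over its transcripts. The rule retained 10341 of the 54446 genes in the table, of which 8832 are protein-coding in the GENCODE M21 annotation. The last gene inside the minimum was Pafah1b3 at a mean of 1.0001 TPM and the first outside was Ramp2 at 0.999 TPM. The knockout group (srsf1f/f;albcre+/-, written HKO below) carries floxed Srsf1 alleles and an albumin-Cre transgene, whose promoter is active in the hepatocyte lineage. The control group (albcre+/-) carries the same transgene and is not labelled as floxed, so the floxed line and the deletion cannot be told apart here. All animals were C57BL/6, untreated, and kept under a cycle of 12 hours of light and 12 of dark, and RNA came from purified, frozen hepatocytes. The labels do not say that the 2 libraries of a group come from separate animals, so the spread that p-values measure may be technical. That spread was estimated over 8 libraries, these 4 and those of the same model at postnatal day 10. The series holds 14 libraries in all, and 2 further comparisons served as reference: the same knockout at postnatal day 10 (P10, 2 libraries a group), and an acute model in which floxed srsf1f/f mice received a viral vector at 8 weeks, expressing iCre (acute HKO) or GFP from the hepatocyte TBG promoter, and were sampled at 10 weeks (3 libraries a group).

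SRSF1 is a founding member of the SR proteins, RNA-binding proteins that help define exons, promote spliceosome assembly, and take part in RNA export, decay and translation. The hepatocyte makes most plasma proteins, clears nitrogen and xenobiotics, and handles lipids and bile acids. Much of this output is set by hormones, cytokines and the circadian clock. Hepatocytes divide during growth of the liver, rarely divide in the adult, and re-enter the cell cycle after injury.

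The libraries of a group resembled each other more than those of the other group: correlations of log2(TPM + 1) across the retained genes were 0.978 between the controls and 0.977 between the HKO libraries, against 0.941 to 0.954 between groups. The unit keeps no read depth, which is therefore unknown here. Mitochondrially encoded genes took 31.2% and 26.04% of all TPM in control libraries and 50.6% and 35.8% in HKO_1m replicates 1 and 2, so that HKO_1m replicate 1 stands apart and all its other genes share a smaller remainder. All 4 libraries held Y-linked RNA (32.0 to 54.5 TPM summed over 4 genes) and at most 0.00862 TPM of Xist. All 12 hepatocyte markers were expressed: albumin (Alb) measured 43304 and 58453 TPM in control libraries and 37610.1 and 53716 TPM in HKO libraries, where, as in every pair below, replicate 1 is given first. Of these markers 3 were lower in the HKO libraries, Cyp2e1, Hnf4a and Serpina1c, and none was higher (6 lower after median-ratio rescaling, 1 without control_1m replicate 2 or HKO_1m replicate 1).

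Both HKO libraries held less Srsf1 RNA (ENSMUSG00000018379.17; GRCm38 chromosome 11, plus strand, 88047373 to 88053755), and the groups did not overlap. It measured 23.2 and 20.01 TPM in control libraries and 7.74 and 9.17 TPM in HKO libraries. Fold changes are given relative to the median gene, whose log2 fold change on log2(TPM + 1) was -0.04; for Srsf1 this relative log2 fold change was -1.22 (SE 0.23, limma adjusted p = 0.00418). Its 2 main coding transcripts fell in parallel in these values: Srsf1-201 measured 8.04 and 8.05 TPM in control libraries and 3.46 and 4.38 TPM in HKO libraries, and Srsf1-205 measured 5.86 and 6.78 against 2.57 and 3.82 TPM. Srsf1-204, annotated as a target of nonsense-mediated decay, measured 4.70 and 1.49 against 0.961 and 0.224 TPM, and the retained-intron transcript Srsf1-203 measured 3.28 and 2.44 against 0.423 and 0.566 TPM. The sources used here do not name the deleted exons, and the TPM count any transcript that still holds Srsf1 sequence.

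The rest of the splicing machinery was nearly level. Srsf1 was the 1 SR protein of 12 tested that passed the threshold on the deposited TPM. Tra2b was also lower after rescaling each library by its median ratio (log2 fold change -0.34, adjusted p = 0.04989), Srsf4 was lower without HKO_1m replicate 2 (-0.72, adjusted p = 0.03424), and Srsf6 was higher when TPM were rescaled over coding genes (0.79, adjusted p = 0.01318) or without mitochondrial genes (0.75, adjusted p = 0.0162). None of 44 core spliceosome genes passed with limma (0 at an unadjusted p under 0.05, 0 in the authors' deposited table, 1 higher after median-ratio rescaling). None of 44 hnRNP and tissue splicing regulators passed (2 at an unadjusted p under 0.05, 2 in the authors' deposited table, 3 lower after median-ratio rescaling), and neither did any of 21 genes of nonsense-mediated decay (1, 0 and 0 by the same counts). Rescaled over coding genes, which lifts the median gene by 0.30, 17 core spliceosome genes passed as higher.

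In all, 733 genes changed at an adjusted p under 0.05 (7.09% of those tested), 481 higher (4.65%) and 252 lower (2.44%), so that 34.4% of calls were lower. Of these, 375 were at least 2-fold higher and 176 at least 2-fold lower. The split depends on the scaling: after median-ratio rescaling 826 genes were higher (7.99%) and 868 lower (8.39%), or 51.2% lower, while rescaling over coding genes left 8.33% of calls lower and rescaling without mitochondrial genes 10.7%. The median log2 fold change was -0.03, 0.30 and 0.25 under these 3 scalings. Of the calls, 417 higher and 236 lower ones were called in the same direction after median-ratio rescaling and 0 in the other, and 344 (46.9%) passed in all 4 fits that leave out 1 of the 4 libraries. Of the genes with an adjusted p in the authors' deposited table, 13.5% passed, and 665 of the 733 calls did so in the same direction. Of the 1284 tested genes that passed there, 51.8% were calls here in the same direction. The list counts below on the deposited TPM stand beside the shares of 4.65% higher and 2.44% lower over all tested genes. Among tested genes with a control mean of at least 1 TPM 2.58% were higher.

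**Figure D1:**
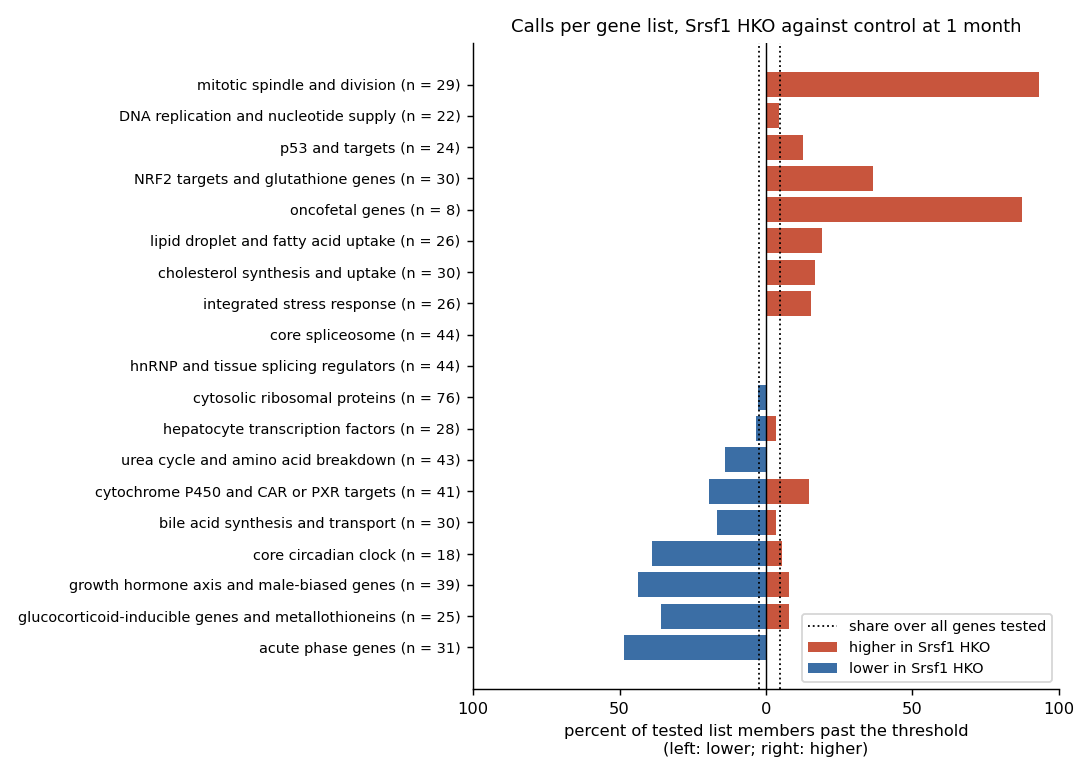
Percent of the tested members of 19 gene lists that passed as higher (red, right) or lower (blue, left) in Srsf1 HKO at 1 month, with dotted lines at the shares over all tested genes (4.65% higher, 2.44% lower). Division, oncofetal and NRF2 lists lie to the right and acute phase, growth hormone, clock and glucocorticoid lists to the left; 23 of the 29 mitotic genes reached the TPM minimum only through the HKO libraries.

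The largest rise was that of Ly6d, which encodes a small membrane-anchored protein of the Ly6 family known from lymphoid and epithelial cells. It measured 0.463 and 0.560 TPM in control libraries and 63.99 and 69.6 TPM in HKO libraries (relative log2 change 5.52, SE 0.20, adjusted p = 9.71e-09). Both HKO values were far above both control values. H19, an imprinted noncoding RNA of the fetal liver, measured 0.136 and 0.248 TPM in control libraries and 16.5 and 57.95 TPM in HKO libraries (4.79, adjusted p = 1.03e-05), and HKO_1m replicate 2 held the higher value. Tff3, a secreted trefoil peptide of mucosal surfaces, rose from 5.86 and 5.35 to 71.3 and 91.9 TPM (3.67). Ly6d and H19 were under 1 TPM in both controls, and Tff3 was not.

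Glutathione transferases followed. Gstm3 measured 5.29 and 8.81 TPM in control libraries and 170.01 and 239.5 TPM in HKO libraries (relative log2 change 4.73, SE 0.29, adjusted p = 7.92e-07), and Gsta1 measured 1.32 and 1.29 against 42.6 and 67.4 TPM (4.60). Both enzymes conjugate glutathione to electrophiles, and both belong to families of near-identical copies whose reads can be shared out among them. Cyp3a41a, a cytochrome P450 that in mice is made mainly by females, measured 0.0518 and 0.00491 TPM in the controls, which are close to 0, and 6.03 and 26.6 TPM in HKO libraries (3.80).

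Among the remaining large rises, Spp1, which encodes the secreted matricellular protein osteopontin, measured 1.12 and 0.998 TPM in control libraries and 32.5 and 17.9 TPM in HKO libraries (relative log2 change 3.65, SE 0.29, adjusted p = 3.84e-06). Nupr1, a stress-induced chromatin protein, rose from 0.0967 and 0.0957 to 12.9 and 10.7 TPM (3.58), and the fatty acid transporter Cd36 from 2.19 and 5.74 to 40.4 and 65.98 TPM (3.54). The groups were far apart for each of these. Cib3, a calcium-binding protein (0.772 and 0.625 against 15.7 and 20.8 TPM), Lgals1, the lectin galectin-1 (1.52 and 1.85 against 20.2 and 34.9 TPM), and the clone-named model AC153140.1 (0.0284 and 0.0394 against 12.3 and 7.76 TPM) complete the 12 largest, with relative log2 fold changes of 3.53, 3.40 and 3.42. Spp1 is also a marker of bile duct cells and Lgals1 is abundant in non-parenchymal cells, whose markers were higher in the HKO libraries (given below); their part in these rises was not tested.

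**Figure D2:**
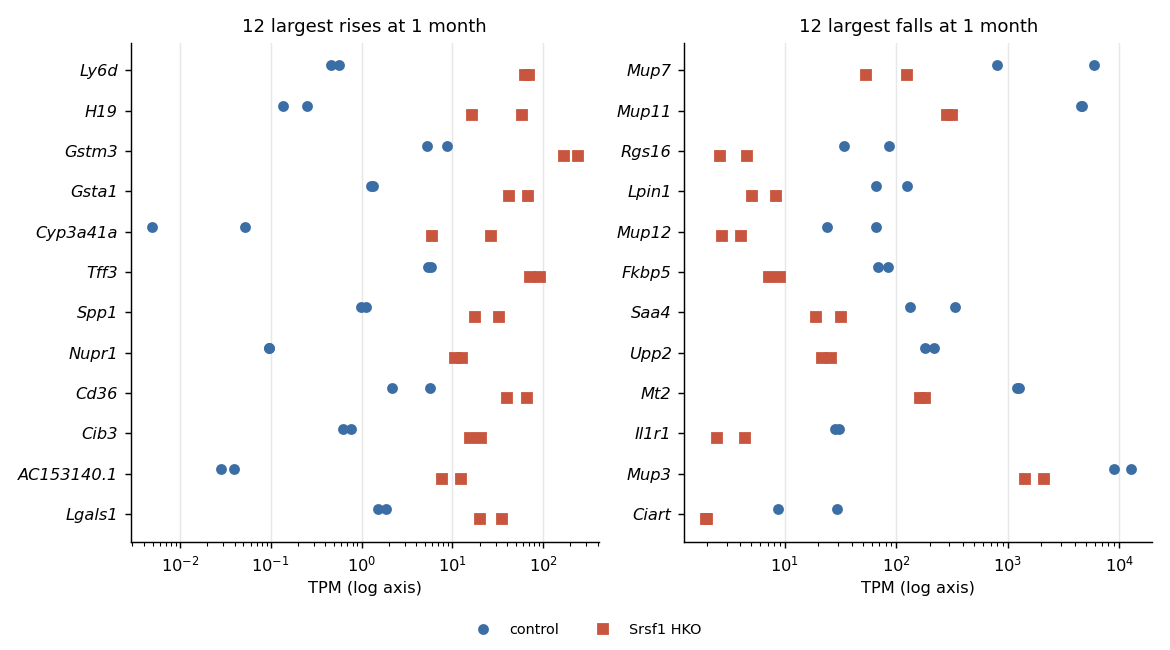
TPM (log axis) of the 12 largest rises and the 12 largest falls in the 2 control libraries (blue circles) and 2 Srsf1 HKO libraries (red squares) at 1 month. The groups do not overlap for any of these genes, which the naming rule required. The 2 Mup7 controls lie far apart (5931 and 798 TPM).

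The largest falls were those of major urinary proteins, pheromone carriers that the male liver secretes under growth hormone control. Mup7 measured 5931 and 798 TPM in control libraries and 125 and 53.9 TPM in HKO libraries (relative log2 change -4.68, SE 0.74, adjusted p = 0.00125), and did not pass without HKO_1m replicate 1 or 2 (adjusted p = 0.0527 and 0.0768). Mup11 measured 4614 and 4543 against 314 and 285 TPM (relative log2 change -3.89, SE 0.35, adjusted p = 9.97e-06), with controls close together. Mup12 (-3.19) and Mup3 (-2.59) were lower as well, Mup3 not passing without HKO_1m replicate 2 (adjusted p = 0.0604). Mup genes are near-identical copies, so single members are uncertain.

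Genes of other functions fell by similar amounts. Rgs16, a regulator of G protein signalling with a daily rhythm in liver, measured 33.7 and 86.4 TPM in control libraries and 2.64 and 4.57 TPM in HKO libraries (relative log2 change -3.57, SE 0.40, adjusted p = 7.86e-05). Lpin1, a phosphatidate phosphatase of lipid synthesis and a coactivator, measured 65.4 and 125 against 5.08 and 8.31 TPM (-3.57). Fkbp5, a chaperone of the glucocorticoid receptor that glucocorticoids induce, measured 68.2 and 84.2 against 7.24 and 9.07 TPM (-3.04). For each of these the groups were well apart, and for Rgs16 and Lpin1 control_1m replicate 2 was the higher control. Further falls were those of Saa4 (an apolipoprotein of the serum amyloid family, -3.02), Upp2 (a uridine phosphorylase, -2.97), Mt2 (a metallothionein, -2.81), Il1r1 (the interleukin-1 receptor, -2.77) and Ciart (a repressor of the clock, -2.48). Ciart did not pass without HKO_1m replicate 1 or 2 (adjusted p = 0.072 and 0.0569).

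Genes of mitosis rose together. Of 54 genes of the mitotic spindle and cell division, all were detected and 53 were higher in both HKO libraries than in both controls, against 24.3% of all genes above 0 in any of the 4 libraries; Mybl2 was the exception. Their summed TPM was 19.7 and 28.6 in the controls and 142.5 and 177.9 in the HKO libraries. Of the 29 that were tested, 23 passed the TPM minimum only through the HKO libraries, and such genes had to differ. Of the 6 with a control mean of at least 1 TPM, 5 rose (Cdk1, Nek2, Cenpa, Spc25 and Smc4), against 2.58% of all tested genes at that control level, and Spc24 did not pass (0.26, adjusted p = 0.677). With the minimum lowered to 0.1 TPM all 54 were tested and 45 rose, against 3.59% of genes.

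Among the single genes given here, Cdk1 and Spc25 had a control mean of at least 1 TPM. The others reached the TPM minimum only through the HKO libraries, so their group means had to differ. Cdk1, the kinase that drives entry into mitosis, measured 0.756 and 1.87 TPM in control libraries and 8.35 and 12.8 TPM in HKO libraries (relative log2 change 2.38, SE 0.27, adjusted p = 0.000112). Its partner cyclin Ccnb2 measured 0.308 and 0.422 against 8.94 and 8.10 TPM (2.84), and Cdc20, an activator of the anaphase-promoting complex, 0.0885 and 0.411 against 5.19 and 8.03 TPM (2.63). The groups did not overlap for these or for the proliferation marker Mki67 (0.0316 and 0.165 against 2.62 and 2.81 TPM, 1.80). Ccnb1, the other mitotic B cyclin (2.30), Hmmr, a spindle-associated protein (2.09), Ckap2 (2.45), Kif20a, a kinesin of cytokinesis (2.13), Ube2c, the ubiquitin-conjugating enzyme of the anaphase-promoting complex (2.05), and Birc5, a subunit of the chromosomal passenger complex (2.09), rose too. Spc25, a kinetochore subunit with one of the higher control levels, measured 2.66 and 3.97 against 10.8 and 17.1 TPM (1.82, adjusted p = 0.000683).

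Promoters of these genes carry a known pair of elements, the cell cycle homology region (CHR) and the CCAAT box, through which mitotic genes are repressed in resting cells and activated before division. RefSeq promoter windows (250 bases before to 50 after a start site, GRCm38.p6) were matched for 23 of the 29 tested genes, with 25 windows. The letters TTTGAA of the CHR stood on either strand in 20 of the 25 windows, against 17.9% of all 32851 windows in the table, and the letters CCAAT in 22 of 25, against 37.4%. The 100 bases before the start site are shown for 4 of these genes as examples of this arrangement, read 5′ to 3′ along the gene, with TTTGAA and CCAAT (or their reverse complements TTCAAA and ATTGG) in capitals. The windows are Cdc20 at chr4:118437344-118437443 (minus strand), Mki67 at chr7:135716380-135716479 (minus), Cdk1 at chr10:69352913-69353012 (minus) and Ube2c at chr2:164769829-164769928 (plus).
Cdc20: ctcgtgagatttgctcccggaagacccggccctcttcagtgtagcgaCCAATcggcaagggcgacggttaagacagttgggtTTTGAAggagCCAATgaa
Mki67: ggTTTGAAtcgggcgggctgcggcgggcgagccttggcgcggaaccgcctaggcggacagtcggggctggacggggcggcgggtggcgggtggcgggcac
Cdk1: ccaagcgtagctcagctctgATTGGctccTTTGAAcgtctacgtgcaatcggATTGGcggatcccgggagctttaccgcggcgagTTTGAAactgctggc
Ube2c: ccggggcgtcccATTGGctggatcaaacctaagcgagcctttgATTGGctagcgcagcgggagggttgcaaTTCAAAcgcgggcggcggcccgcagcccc
In Cdc20, Cdk1 and Ube2c both kinds of letters stand in this stretch, and in Mki67 the CHR alone. A match is a description of letters and not a bound site.

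Few genes of DNA replication passed on the deposited TPM. Of 22 tested, Mcm6 rose and none fell (6 higher after median-ratio rescaling, 3 without HKO_1m replicate 1), with a list median of 0.30 on the relative log2 scale, on which the median of all tested genes is 0. Mcm6, a subunit of the replicative helicase, measured 0.494 and 0.826 TPM in control libraries and 1.63 and 2.50 TPM in HKO libraries (relative log2 change 0.91, SE 0.21, adjusted p = 0.0245), and did not pass without control_1m replicate 1 or HKO_1m replicate 2 (adjusted p = 0.172 and 0.0599). Mcm6 is among the 2 members that reached the TPM minimum only through the HKO libraries, and such genes had to differ. Of the 20 with a control mean of at least 1 TPM 0 passed. Rescaled over coding genes 15 of the 22 were higher, beside 3003 of all 10341 tested genes. Rescaled without mitochondrial genes 12 were higher, beside 2198 of all tested genes. Over all 42 listed genes, 26 were higher in both HKO libraries and 2 were lower in both, against 24.3% and 12.5% of all genes above 0 in any library. The CHR letters stood in 1 of 20 windows of the tested replication genes. Either of the E2F letters TTTGGCGC or TTTCCCGC stood in 4 of 20, against 1.56% of all windows and 2.82% of windows of all tested genes. The Mcm6 window (chr1:128359706-128359805, minus strand) is shown for contrast with the mitotic genes, with the E2F and CCAAT letters in capitals and no CHR among them.
Mcm6: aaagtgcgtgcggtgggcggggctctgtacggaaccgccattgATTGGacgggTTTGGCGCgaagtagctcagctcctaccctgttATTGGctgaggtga
Whether mitotic genes rose more than replication genes was not tested.

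**Figure D3:**
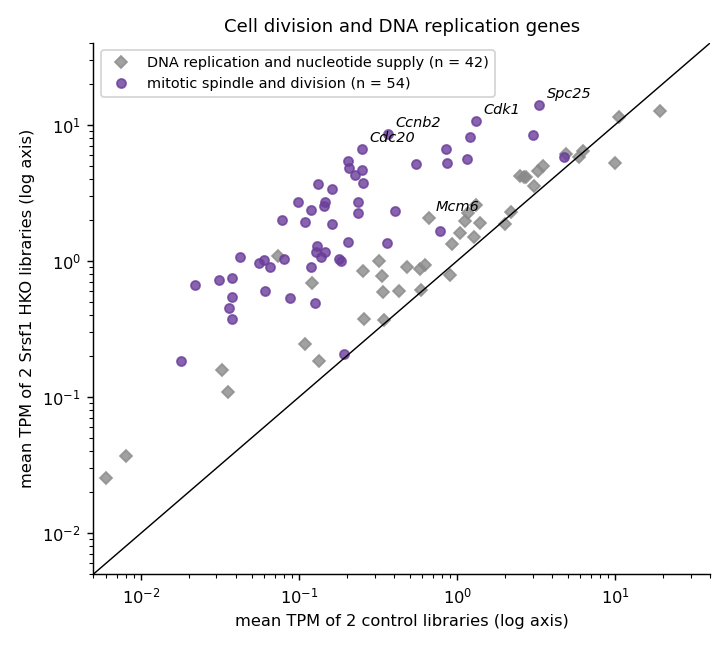
Mean TPM in the 2 Srsf1 HKO libraries against mean TPM in the 2 controls (both log axes) for 54 mitotic genes (purple circles) and 42 DNA replication genes (grey diamonds), with a line of equality. The mitotic genes lie above the line, Ccnb2 and Cdc20 among those far from it. Replication genes with more than 1 TPM in the controls lie close to the line. Orc1, at 0 in both controls, is drawn at the left edge.

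Other parts of the cell cycle were measured too. Ccnd1, the G1 cyclin that responds to growth signals, measured 3.23 and 3.31 TPM in control libraries and 13.1 and 23.7 TPM in HKO libraries (relative log2 change 2.17, SE 0.31, adjusted p = 0.000739), and Myc, a growth-promoting transcription factor, 0.398 and 1.99 against 4.89 and 5.64 TPM (1.65). Both groups were apart for both genes, though Myc did not pass without HKO_1m replicate 1 or 2 (adjusted p = 0.079 and 0.0776). These were the calls among 15 tested genes of G1 cyclins, E2F factors and inhibitors (5 higher and 1 lower after median-ratio rescaling). Of 24 p53 targets 3 rose and none fell (8 and 1 after median-ratio rescaling, 6 and 0 without HKO_1m replicate 1): Psrc1, a microtubule-associated protein (1.77), Phlda3, an inhibitor of Akt (1.58), and the kinase Plk2 (1.32). Over all tested genes 4.65% rose. Psrc1 and Phlda3 measured 0.0597 and 0.0907 and 0.0177 and 0.0786 TPM in control libraries and reached the minimum through the HKO libraries. Of the 22 targets with a control mean of at least 1 TPM 1 rose, against 2.58% of all tested genes at that control level. The classical targets Cdkn1a (13.8 and 27.6 against 13.1 and 32.4 TPM) and Mdm2 (9.45 and 11.4 against 10.99 and 16.2 TPM) did not pass, and Mdm2 overlapped between the groups, as did Cdkn1a (adjusted p = 0.962 and 0.547). None of 17 DNA damage signalling and repair genes passed with limma (1 at an unadjusted p under 0.05, 0 in the authors' deposited table, 3 higher after median-ratio rescaling).

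Oncofetal genes, which are active in fetal liver or liver tumours and silent in the adult, rose in part. The list was chosen with earlier results of these data known. Of 8 tested 7 rose, against 4.65% of all tested genes, and none fell: Ly6d, H19, Tff3, Spink1, Lpl, Igf2bp3 and Peg3. The TPM minimum was passed only through the HKO libraries by 3 of the 8. Of the 5 whose control mean reached 1 TPM, 4 rose, against 2.58% of all tested genes at that control level. With the minimum lowered to 0.1 TPM 6 of 19 rose, against 3.59% of genes. Spink1, a secreted trypsin inhibitor, measured 0.181 and 0.518 TPM in control libraries and 14.1 and 11.4 TPM in HKO libraries (relative log2 change 3.39, SE 0.26, adjusted p = 3.72e-06). Lpl, lipoprotein lipase, which adult hepatocytes hardly make, measured 3.55 and 6.64 against 30.7 and 55.4 TPM (2.88). The smaller rises of Igf2bp3, a fetal RNA-binding protein (1.04), and the imprinted gene Peg3 (1.01) did not pass without control_1m replicate 1 (adjusted p = 0.171 and 0.217) or HKO_1m replicate 2 (0.121 and 0.0722). H19 and Peg3 are on the list of imprinted growth genes as well, of which 4 of 10 tested rose (2 of the 7 with a control mean of at least 1 TPM). The imprinted noncoding RNA Meg3 also rose, with 0.331 and 0.146 TPM in control libraries and 2.28 and 2.36 TPM in HKO libraries (1.47, adjusted p = 0.000807). Many members of both lists stayed under the TPM minimum: 16 oncofetal and 13 imprinted genes were not tested.

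Targets of NRF2, the transcription factor of the antioxidant response, and genes of glutathione metabolism were partly higher. Of 30 tested 11 rose, against 4.65% of all tested genes, and none fell. After median-ratio rescaling 15 rose, against 7.99%, and 0 fell. Of the 27 with a control mean of at least 1 TPM 8 rose, against 2.58% of all tested genes at that control level. Gstm2 measured 11.8 and 17.4 TPM in control libraries and 74.2 and 127 TPM in HKO libraries (relative log2 change 2.71, SE 0.29, adjusted p = 5.67e-05), beside Gstm3 and Gsta1 above. Abcc4, an efflux pump for conjugates, measured 0.0515 and 0.0529 against 1.88 and 4.31 TPM (1.93), and Gsta2 15.9 and 23.8 against 54.6 and 129 TPM (2.09). All HKO values lay above all control values for these. Cbr3, a carbonyl reductase, was nearly absent from the controls (0.0437 and 0.0243 TPM) and measured 4.40 and 6.99 TPM in HKO libraries (2.70), but did not pass without HKO_1m replicate 1 or 2 (adjusted p = 0.0554 and 0.0737). Pgd, an enzyme of the pentose phosphate pathway, rose as well (1.28, adjusted p = 0.00293).

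Drug-metabolizing enzymes moved in both directions. Of 41 cytochrome P450 genes and targets of the xenobiotic receptors CAR and PXR, 6 rose and 8 fell, with a list median of -0.30. The balance turned with the scaling: 4 rose and 10 fell after median-ratio rescaling, and 11 and 6 when rescaled over coding genes. After quantile normalization 8 rose and 6 fell, with a list median of 0.054. Cyp2c67 measured 82.1 and 107 against 20.5 and 36.2 TPM (relative log2 change -1.71, SE 0.29, adjusted p = 0.00203), Cyp3a13 111 and 125 against 38.9 and 50.8 TPM (-1.35), and Cyp2c38 12.6 and 16.8 against 3.55 and 6.35 TPM (-1.39). Cyp2a4, by contrast, measured 5.26 and 11.05 against 46.7 and 40.6 TPM (2.40, adjusted p = 0.000122). Of the 8 that fell 6 were Cyp2c genes, and of the 6 that rose 3 were Cyp2a genes (Cyp2a4, Cyp2a5 and Cyp2a22), both being families of near-identical copies. Cyp2c55 went against the other Cyp2c calls and rose. Its call was lost without control_1m replicate 1 or either HKO library, at log2 fold changes between 0.95 and 1.39. The calls of Cyp2c40, Cyp2c54, Cyp2c68, Cyp2c69, Cyp2a5 and Cyp2a22 were each lost as well in at least 1 fit without a library. Cyp2e1, the ethanol-oxidizing enzyme, measured 2977 and 3863 against 919 and 2035 TPM (-1.27), and did not pass without control_1m replicate 2 or HKO_1m replicate 1 (adjusted p = 0.101 and 0.15). Without HKO_1m replicate 1 the list had 3 genes higher and 3 lower, and without HKO_1m replicate 2 it had 2 and 8. Of 36 conjugating and ester-splitting enzymes 5 rose and 4 fell (1 lower without control_1m replicate 2 or HKO_1m replicate 1, 3 higher and 2 lower without HKO_1m replicate 2). The esterase Ces2c measured 1.86 and 1.73 against 18.9 and 34.9 TPM (3.30, adjusted p = 3.41e-06).

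Acute phase genes, which the liver makes in response to interleukin-6 and related cytokines, fell. Of 31 tested 15 fell and none rose (19 lower and 1 higher after median-ratio rescaling), 25 were lower in both HKO libraries (17.1% of all tested genes), and the list median was -0.93. Of the serum amyloid genes, Saa4 measured 336 and 133 TPM in control libraries and 19.04 and 31.6 TPM in HKO libraries (relative log2 change -3.02, SE 0.40, adjusted p = 0.000264), and Saa1 measured 156 and 65.8 against 18.4 and 21.4 TPM (-2.26, not passing without HKO_1m replicate 1, adjusted p = 0.0507). Control_1m replicate 1 was the higher control for both, and the groups stayed apart. Orm2, an orosomucoid, measured 25.2 and 22.4 against 7.50 and 9.58 TPM (-1.35), and Lrg1, a leucine-rich glycoprotein, 209.6 and 179.8 against 74.3 and 86.9 TPM (-1.23). The cytokine receptors Il1r1 and Il6ra were lower too, Il1r1 with 30.5 and 28.000 against 2.44 and 4.41 TPM (-2.77) and Il6ra with 16.3 and 20.6 against 3.94 and 6.04 TPM (-1.68). Crp measured 258 and 369.6 against 110.5 and 122 TPM (-1.37), and did not pass without control_1m replicate 2 (adjusted p = 0.0587). The count of lower acute phase genes was 9 without HKO_1m replicate 1, and between 12 and 15 without any other 1-month library.

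Genes induced by glucocorticoids and the metallothioneins fell in part. Of 25 tested 9 fell and 2 rose, beside 2.44% and 4.65% of all tested genes (12 and 2 after median-ratio rescaling). The list median was -0.73. Mt1 and Mt2 encode the metal-binding metallothioneins, which glucocorticoids, metals and inflammation induce. Mt1 measured 980.4 and 1158 TPM in control libraries and 194 and 243 TPM in HKO libraries (relative log2 change -2.25, SE 0.29, adjusted p = 0.000209) and Mt2 measured 1199 and 1264 against 179.5 and 162 TPM (-2.81). Fam107a, a glucocorticoid-induced actin-binding protein, measured 3.69 and 4.40 against 0.0284 and 0.108 TPM (-2.20, adjusted p = 1.17e-05), and was nearly absent from both HKO libraries. Pdk4, a kinase that shuts off pyruvate oxidation in fasting, went the other way, from 0.211 and 2.06 to 11.8 and 18.5 TPM (3.07, adjusted p = 0.000197), and so did the kinase Sgk1, from 10.4 and 13.1 to 30.4 and 45.6 TPM (1.63). Leaving out control_1m replicate 2 or HKO_1m replicate 1 left 6 lower genes, and without control_1m replicate 2 the count of higher genes was 4.

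Clock genes differed between the groups. Of 18 core clock genes 7 fell and 1 rose, beside 2.44% and 4.65% of all tested genes (7 and 1 after median-ratio rescaling). Nr1d1, the repressor REV-ERB alpha, measured 21.99 and 20.7 TPM in control libraries and 8.004 and 6.25 TPM in HKO libraries (relative log2 change -1.43, SE 0.23, adjusted p = 0.00101). The transcription factors Dbp and Tef, which act on D-box elements, measured 28.8 and 6.29 against 2.52 and 1.14 TPM (-2.39) and 83.5 and 34.5 against 15.1 and 9.37 TPM (-2.05). The 2 controls differed from each other by several-fold for Dbp and Ciart, with control_1m replicate 1 higher. Arntl, which encodes BMAL1 and peaks when Nr1d1 is low, rose from 2.09 and 2.64 to 4.45 and 8.84 TPM (1.16, adjusted p = 0.0158). Several of these calls rest on single libraries: Dbp did not pass without HKO_1m replicate 1 or 2 (adjusted p = 0.0775 and 0.112), Tef without HKO_1m replicate 2 (0.0674), and Arntl without HKO_1m replicate 2 (0.0581). The count of lower clock genes was 4 without control_1m replicate 1 or either HKO library, and 8 without control_1m replicate 2. The labels give no time of day at sampling, so a difference in circadian time and an effect of the genotype cannot be told apart.

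The clock's activators bind the E-box CACGTG. These letters stood in 5 of 22 windows matched for 14 of the clock genes, against 7.15% of all windows and 10.4% of windows of all tested genes. They are not particular to clock genes, and stood in 7 of 26 windows of the cholesterol list and 6 of 35 of the glucocorticoid list. Ciart, which fell from 29.3 and 8.60 to 1.94 and 2.02 TPM (relative log2 change -2.48, SE 0.39, adjusted p = 0.00107), has 2 of them in the 100 bases before its start site (chr3:95882229-95882328, minus strand), in capitals here.
Ciart: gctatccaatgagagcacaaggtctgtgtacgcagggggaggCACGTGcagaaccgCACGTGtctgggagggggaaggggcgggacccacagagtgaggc
Of 31 rhythmic output genes 6 fell and 1 rose (9 and 2 after median-ratio rescaling, 3 lower without HKO_1m replicate 1, 12 lower without HKO_1m replicate 2, and 3 higher without control_1m replicate 2). Usp2, a rhythmic deubiquitinase, measured 15.6 and 5.91 against 0.984 and 1.91 TPM (-2.12, not passing without HKO_1m replicate 1, adjusted p = 0.077). Upp2 measured 216 and 180.2 against 21.7 and 25.8 TPM (-2.97). Chka, choline kinase, rose against them from 22.8 and 19.6 to 78.3 and 85.1 TPM (1.94).

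**Figure D4:**
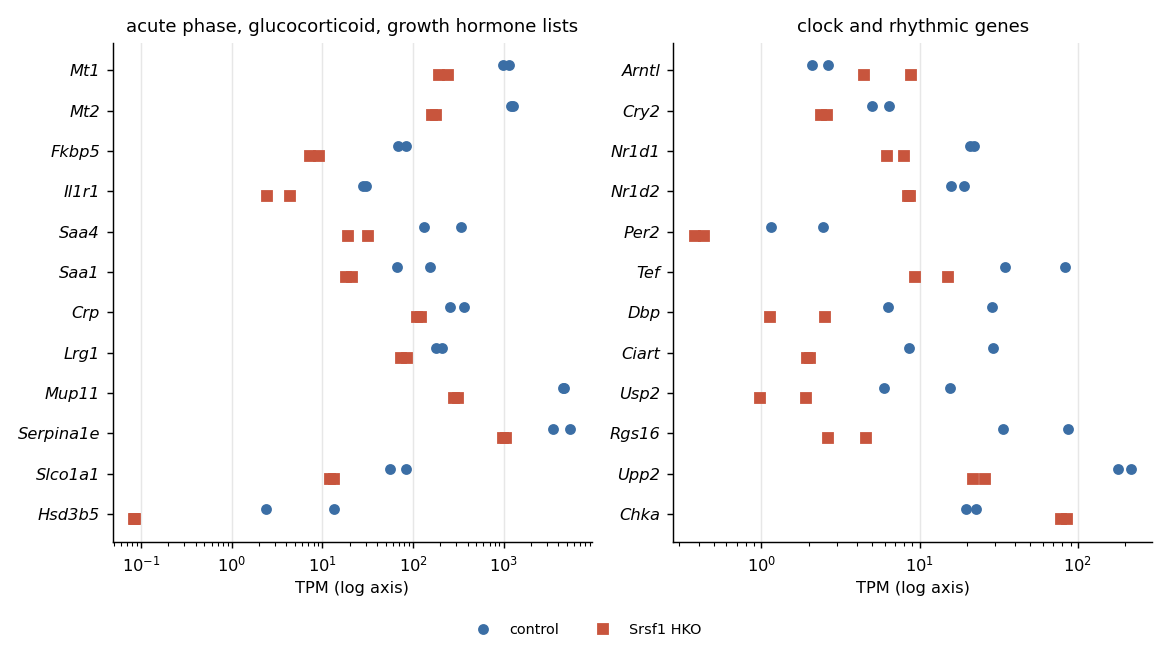
TPM (log axis) in the 2 control (blue circles) and 2 Srsf1 HKO libraries (red squares) at 1 month for 12 genes of the acute phase, glucocorticoid and growth hormone lists (left) and 12 clock or rhythmic genes (right). All 12 genes on the left are lower in both HKO libraries, and on the right Arntl and Chka are higher.

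Genes of the growth hormone axis and of the male pattern of liver expression fell in part. Of 39 tested 17 fell and 3 rose (16 and 2 after median-ratio rescaling; 2 members passed the minimum only through the HKO libraries), with a list median of -0.72. Slco1a1, an organic anion uptake transporter of the male liver, measured 82.8 and 56.2 TPM in control libraries and 12.1 and 13.3 TPM in HKO libraries (relative log2 change -2.30, SE 0.21, adjusted p = 1.03e-05). Serpina1e, an alpha-1-antitrypsin copy, measured 5444 and 3544 against 996 and 1069.8 TPM (-2.05). Mup17 (62.5 and 64.4 against 28.6 and 24.3 TPM) and Mup2 (55.3 and 56.9 against 16.2 and 19.6 TPM) fell as well (-1.20 and -1.57), 2 of the 10 Mup genes among the falls of the list. Without HKO_1m replicate 1 the list had 1 gene higher and 9 lower, without HKO_1m replicate 2 it had 2 and 10, and without control_1m replicate 1 it had 6 and 15.

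Against the direction of that list, Cish, which growth hormone signalling induces directly, rose from 0.468 and 0.950 to 2.74 and 2.96 TPM (1.22, adjusted p = 0.00183). Cyp4a12b, a male-biased P450, measured 9.51 and 2.48 against 21.6 and 22.6 TPM (1.97), and Cyp4a12a 26.5 and 7.78 against 45.9 and 39.6 TPM (1.53); neither passed without HKO_1m replicate 1 or 2 (adjusted p = 0.104 and 0.0827 for Cyp4a12b and 0.215 and 0.124 for Cyp4a12a), and Cyp4a12a did not without control_1m replicate 2 (0.154). Igf1, the growth hormone effector, did not pass (302 and 295 against 214 and 239.7 TPM, adjusted p = 0.505). Of 18 female-biased genes 4 rose and 4 fell (1 and 4 of the 15 with a control mean of at least 1 TPM), and the list's median was 0.034. Cyp3a41a and Cyp2a4 rose, as did Sult2a2 (0.0139 and 0.164 against 3.51 and 16.6 TPM, 3.07; adjusted p = 0.0615 without HKO_1m replicate 2). Fmo2, a flavin monooxygenase, measured 6.72 and 17.8 against 2.45 and 2.77 TPM (-1.70) and did not pass without HKO_1m replicate 1 or 2 (adjusted p = 0.0975 and 0.0648). Without HKO_1m replicate 1 the list had 4 higher and 0 lower, without HKO_1m replicate 2 it had 2 and 0, and without control_1m replicate 2 there were 7 higher and 3 lower.

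Some enzymes of nitrogen handling were lower. Among 43 urea cycle and amino acid catabolism genes 6 passed as lower and 0 as higher, 21 were lower in both HKO libraries (17.1% of all tested genes), and the list median was -0.36. After quantile normalization 3 were lower and the median was -0.10. Asl, argininosuccinate lyase, measured 509 and 870.4 TPM in control libraries and 244 and 256 TPM in HKO libraries (relative log2 change -1.37, SE 0.28, adjusted p = 0.00726). Arg1, arginase, measured 1025 and 1379 against 509.6 and 663 TPM (-0.99). Neither passed without control_1m replicate 2 (adjusted p = 0.0927 and 0.23) or HKO_1m replicate 1 (0.0537 and 0.0738). The count of lower genes was 0 without HKO_1m replicate 1, 1 without control_1m replicate 2, 10 without control_1m replicate 1 or HKO_1m replicate 2, and 13 after median-ratio rescaling.

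Lipid genes were counted by pathway, beside 4.65% higher and 2.44% lower over all tested genes. Differences between pathways were not tested. Of 30 genes of cholesterol synthesis and uptake 5 rose and none fell (9 and 2 after median-ratio rescaling, 3 and 0 without HKO_1m replicate 2). Sqle, squalene epoxidase, measured 1.46 and 1.18 TPM in control libraries and 6.74 and 8.45 TPM in HKO libraries (relative log2 change 1.92, SE 0.21, adjusted p = 7.53e-05), Hmgcs1, which makes the first committed intermediate, 15.5 and 16.7 against 40.3 and 80.95 TPM (1.80), and Idi1 5.80 and 5.87 against 14.4 and 25.2 TPM (1.59). Of 26 genes of lipid droplets and fatty acid uptake 5 rose and none fell (7 and 3 after median-ratio rescaling): Cd36, Lpl, Cidec, Fabp5 and Hilpda. Cidec, a droplet protein of fat-storing cells, measured 1.29 and 6.46 against 15.3 and 16.8 TPM (2.08) and did not pass without HKO_1m replicate 1 or 2 (adjusted p = 0.103 and 0.0875). Of 39 genes of fatty acid oxidation and PPARA targets 3 rose: Pdk4, Acot2, a mitochondrial acyl-CoA thioesterase (0.969 and 3.56 against 16.2 and 25.7 TPM, 2.88), and Acaa1b (1.39), the last not without control_1m replicate 1 (adjusted p = 0.197) or HKO_1m replicate 2 (0.14). Without control_1m replicate 2 the count was 9.

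Of 25 genes of fatty acid synthesis 3 fell and none rose, with a list median of 0.01. Among the 3, Thrsp, a regulator of fatty acid synthesis, measured 28.4 and 8.90 TPM in control libraries and 5.04 and 4.89 TPM in HKO libraries (relative log2 change -1.48, SE 0.36, adjusted p = 0.0228), beside the fall of Lpin1 given above, and its groups did not overlap. The Thrsp call was lost without control_1m replicate 1 (adjusted p = 0.0946), HKO_1m replicate 1 (0.176) or HKO_1m replicate 2 (0.136). Of 30 genes of bile acid synthesis and transport 5 fell and 1 rose (9 and 1 after median-ratio rescaling, 2 lower without HKO_1m replicate 1, 3 without control_1m replicate 2). Cyp27a1, which opens the alternative route of bile acid synthesis, measured 214 and 235 against 76.8 and 93.9 TPM (-1.35), and Cyp7b1 of the same route 23.4 and 8.13 against 2.86 and 3.32 TPM (-1.83), which did not pass without HKO_1m replicate 1 or 2 (adjusted p = 0.101 and 0.0657). Slco1a4 and Slco1a1, uptake carriers, and Cyp39a1 were the other falls. Cyp7a1, the rate-limiting enzyme of the classical route, measured 6.05 and 34.8 against 27.6 and 27.9 TPM and did not pass (adjusted p = 0.542).

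Of 28 hepatocyte transcription factors 1 rose and 1 fell (1 higher and 4 lower without HKO_1m replicate 2). Over all tested genes 4.65% rose and 2.44% fell, so these counts lie near those shares. Onecut1, a factor of hepatic and biliary development, measured 0.983 and 1.68 TPM in control libraries and 6.53 and 8.31 TPM in HKO libraries (relative log2 change 1.90, SE 0.24, adjusted p = 0.000261). Hnf4a, which maintains hepatocyte identity, measured 119 and 145 against 39.8 and 79.6 TPM (-1.17) and did not pass without control_1m replicate 2 (adjusted p = 0.139) or HKO_1m replicate 1 (0.125). Both genes were apart between the groups. Cebpa (-0.45) and Foxa2 (0.032) did not pass (adjusted p = 0.403 and 0.997).

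Of 26 genes of the integrated stress response, in which the factor ATF4 acts on amino acid and survival genes, 4 rose and none fell: Nupr1, Atf3, Slc3a2 and Trib3. Over all tested genes 4.65% rose. Of the 26, 3 passed the minimum only through the HKO libraries, Nupr1 and Atf3 among them. Of the 23 with a control mean of at least 1 TPM 2 rose, against 2.58% of all tested genes at that control level. Without control_1m replicate 2 the count was 8, and without control_1m replicate 1 or HKO_1m replicate 2 it was 2. Atf3 measured 0.494 and 0.580 TPM in control libraries and 2.38 and 2.67 TPM in HKO libraries (relative log2 change 1.23, SE 0.22, adjusted p = 0.00377). Trib3, a pseudokinase, and Slc3a2, an amino acid transporter subunit, rose by 1.14 and 1.06 and did not pass without control_1m replicate 1 (adjusted p = 0.0772 and 0.163) or HKO_1m replicate 2 (0.116 and 0.0624), nor did Trib3 without HKO_1m replicate 1 (0.0753). The letters TGATGNAAN of the ATF4 element stood in 8 of 27 windows of the list's tested genes, against 3.95% of all windows. Nupr1 and Atf3 each have a match at the same distance before the start site, and the 120 bases before Nupr1 (chr7:126625471-126625590, minus strand) are shown with it in capitals, as the reverse complement.
Nupr1: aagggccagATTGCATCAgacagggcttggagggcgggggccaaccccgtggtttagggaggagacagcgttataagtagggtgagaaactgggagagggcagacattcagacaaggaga
Of 28 chaperones of the unfolded protein response 1 fell, Herpud1 (-1.50; adjusted p = 0.0655 without HKO_1m replicate 1; 3 lower without HKO_1m replicate 2), and of 18 heat shock genes 1 rose, Hspb1 (1.86 and 1.73 against 4.24 and 7.65 TPM, 1.31). Of 20 immediate early genes, which handling of cells can induce, 5 rose and 1 fell (3 and 2 without control_1m replicate 2, 2 and 3 without HKO_1m replicate 2). Among them 4 passed the minimum only through the HKO libraries, and of the 16 with a control mean of at least 1 TPM 2 rose and 1 fell. Over all tested genes 4.65% rose and 2.44% fell, and the chaperone and heat shock counts lie near those shares. Klf6 was the rise of smallest p (1.20), and Junb fell from 36.03 and 34.3 to 11.2 and 14.04 TPM (-1.38).

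Markers of other liver cells were measured because the hepatocytes were purified from whole liver, and in bulk RNA fewer cells of a type and less RNA per cell cannot be told apart. Of 24 macrophage and Kupffer cell markers all were higher in both HKO libraries, against 24.3% of all genes above 0 in any library. Of the 18 tested 17 rose and none fell (6 after median-ratio rescaling, 7 without HKO_1m replicate 1), and of the 11 with a control mean of at least 1 TPM all 11 rose. Their summed TPM was 33.1 and 42.8 in the controls and 230.6 and 108.1 in the HKO libraries, so HKO_1m replicate 1 held the most. The Kupffer cell lectin Clec4f measured 3.10 and 3.45 TPM in control libraries and 26.2 and 8.27 TPM in HKO libraries (relative log2 change 1.93, SE 0.38, adjusted p = 0.00697), and the lysosomal protein Cd68 measured 0.805 and 0.469 against 8.09 and 6.50 TPM (2.38). The scavenger receptor Marco measured 0.442 and 0.691 against 10.6 and 3.56 TPM (2.25; adjusted p = 0.0674 without HKO_1m replicate 1).

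Endothelial markers showed the same tilt toward HKO_1m replicate 1, with sums of 20.9 and 16.6 TPM in control libraries and 78.6 and 24.4 TPM in HKO libraries. Of 12 tested, 5 of them only through the HKO libraries, Fcgr2b rose and none fell, while 11 rose without HKO_1m replicate 2. Of 7 tested stellate cell and fibroblast markers 4 rose: Rgs5 (1.35), Col3a1 (1.30), Dcn (1.42) and Reln (0.87), with counts of 1 without HKO_1m replicate 1, 2 without control_1m replicate 2 and 6 without HKO_1m replicate 2. The minimum was passed only through the HKO libraries by 4 of the 7, and Dcn was the 1 rise among the 3 with a control mean of at least 1 TPM. Among bile duct markers Spp1 and Krt23 rose of 3 tested, Krt23 passing the minimum only through the HKO libraries, and 17 of all 20 were higher in both HKO libraries (24.3% of all genes above 0), at low levels: the defining markers Krt19, Krt7 and Epcam measured at most 0.211, 0.0475 and 0.511 TPM. Without HKO_1m replicate 1 or 2 Krt23 did not pass (adjusted p = 0.0517 and 0.0681). No T cell, B cell, neutrophil or mesothelial marker reached the TPM minimum, and the erythroid list had no call.

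**Figure D5:**
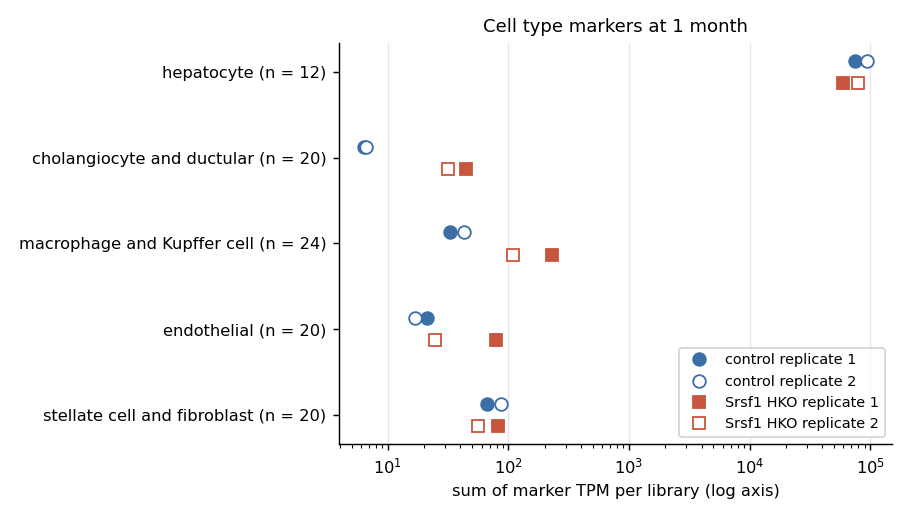
Summed TPM (log axis) of the listed markers of 5 liver cell types in each 1-month library; circles are controls, squares are Srsf1 HKO, and open symbols are replicate 2. Macrophage and bile duct sums are higher in both HKO libraries, the endothelial sum mainly in HKO_1m replicate 1 (78.6 TPM), and hepatocyte sums overlap.

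Among 18 genes for presenting antigen 4 passed as higher and 0 as lower, all 4 of class II, the class displayed by macrophages and other professional cells. The list median was -0.074. Of the 18, 3 passed the minimum only through the HKO libraries, and of the 15 with a control mean of at least 1 TPM Cd74 alone rose. H2-Aa measured 0.800 and 0.663 TPM in control libraries and 4.28 and 2.61 TPM in HKO libraries (relative log2 change 1.37, SE 0.24, adjusted p = 0.00358), and Cd74, the class II invariant chain, 2.09 and 1.61 against 8.01 and 4.92 TPM (1.40). H2-Ab1 (1.08) and H2-Eb1 (1.25) were the others, and 0 of the 18 passed without HKO_1m replicate 1. Of 15 tested matrix and fibrosis genes 6 rose and 1 fell (4 and 0 after median-ratio rescaling; 3 and 1 without HKO_1m replicate 1; 3 and 1 of the 11 with a control mean of at least 1 TPM), Spp1 and Vim (0.610 and 0.348 against 3.99 and 1.51 TPM, 1.30) among them. The macrophage marker sum was higher in the same libraries, and its part in these results was not tested.

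Of 76 ribosomal protein genes tested 2 fell on the deposited TPM, Rpl29 and Rps7, beside 2.44% of all genes, and 60 were lower in both HKO libraries, against 17.1% of all tested genes; the list median was -0.49 (-0.21 and 4 lower after quantile normalization). After median-ratio rescaling 47 fell and 1 rose, and without HKO_1m replicate 2 the count was 41, while without HKO_1m replicate 1 it was 1 and without control_1m replicate 2 it was 0. Rpl29 measured 113 and 132 TPM in control libraries and 37.7 and 64.5 TPM in HKO libraries (relative log2 change -1.25, SE 0.28, adjusted p = 0.0132; adjusted p = 0.0597 without control_1m replicate 2). Ribosomal protein genes have many near-identical pseudogenes. Of 15 mitochondrially encoded genes mt-Atp6, a subunit of ATP synthase, passed as higher (45619 and 38686 against 80109.6 and 57988 TPM), but not without HKO_1m replicate 1 or control_1m replicate 2 (adjusted p = 0.243 and 0.152), nor after median-ratio rescaling; without control_1m replicate 1 or HKO_1m replicate 2, 3 and 4 of the 15 passed. None of 45 nuclear genes of oxidative phosphorylation passed with limma (1 at an unadjusted p under 0.05, 1 in the authors' deposited table, 6 lower after median-ratio rescaling).

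Transcript usage was compared within genes, since SRSF1 acts on splicing. A gene counted as changed when limma's diffSplice gave an adjusted p under 0.05 and the share of a transcript in its gene differed by at least 10 percentage points. Of 3656 genes with 2 or more measurable transcripts 16 changed (0.438%), and 1 of the 16, 1600014C10Rik, did so in all 4 fits that leave out a 1-month library. In that gene, whose coding transcript 1600014C10Rik-208 took 54.9% and 58.98% in the controls and 20.2% and 20.97% in the HKO libraries, the groups were far apart (adjusted p = 1.11e-06). The share of 1600014C10Rik-203 went from 1.90% and 2.59% to 18.4% and 18.5%, and 1600014C10Rik-206, at 0 in both controls, took 12.97% and 12.3%. The level of 1600014C10Rik-208 itself measured 18.8 and 19.3 TPM in control libraries and 18.2 and 28.4 TPM in HKO libraries, so its smaller share came with more of the other transcripts.

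Snd1, a nuclease of RNA editing and silencing complexes, changed in usage. Its level, 14.3 and 15.9 against 16.4 and 25.9 TPM, was higher in both HKO libraries and did not pass (0.46, adjusted p = 0.525). Its full transcript Snd1-201 took 93.97% and 97.5% of its TPM in control libraries and 55.7% and 63.8% in the HKO libraries (adjusted p = 0.0123). Most of the remainder in the HKO libraries came from Snd1-202, a noncoding transcript of 110 bases in 2 exons that was at 0 in both controls and took 31.5% and 28.3% in the HKO libraries. Its first exon (chr6:28704909-28704964, plus strand, 56 bases) overlaps no exon of Snd1-201, while the second (chr6:28707034-28707087, 54 bases) overlaps one. The transcript sequence from GENCODE M21 is shown with the first exon in capitals.
Snd1-202: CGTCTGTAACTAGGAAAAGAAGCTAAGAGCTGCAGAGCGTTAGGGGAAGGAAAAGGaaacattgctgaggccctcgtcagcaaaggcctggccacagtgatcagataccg
In so short a transcript few reads give a high TPM, and the reads behind the value are unknown. The Snd1 call was lost in 3 of the 4 fits without a library, passing without HKO_1m replicate 2.

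Other usage changes touched known liver genes. In Mup1 the transcript Mup1-204 took 15.2% and 28.7% in the controls and 71.8% and 80.8% in the HKO libraries (adjusted p = 0.0292), in a family whose copies share reads; this call was lost without HKO_1m replicate 1 or 2. Zfp949, a zinc finger gene of low level, and Mup2 were also among the 6 with the largest change. Egfr, the receptor of epidermal growth factor, was chosen after its values were seen: its short transcript Egfr-202, which ends in a different form of an exon of Egfr-201 (chr11:16887141-16887923, plus strand) and has 16 exons against the 28 of Egfr-201, fell from 59.2% and 63.5% to 36.0% and 36.6% (adjusted p = 0.00775; lost without control_1m replicate 2 or HKO_1m replicate 1). The full-length Egfr-201 measured 22.3 and 24.9 TPM in control libraries and 20.8 and 24.8 TPM in HKO libraries, and overlapped between the groups.

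The effect at 1 month was set against that of the same knockout at P10, with a test of the difference between the 2 effects on log2(TPM + 1). The median difference over all tested genes was -0.27. Printed effects and differences are relative to the median gene. The test, its p-values and its counts take the difference without removing that median, so the split by direction depends on it. The difference passed for 283 genes (2.74%), 109 with the higher effect at 1 month (1.05%) and 174 with the lower (1.68%). Of the 29 tested mitotic genes 14 had the higher effect at 1 month and none the lower (25 after median-ratio rescaling, against 3.25% of all genes), but 23 of the 29 passed the minimum only through the 1-month HKO libraries, which favours a higher effect at 1 month. Of the 6 with a control mean of at least 1 TPM, Cenpa (difference 1.61, adjusted p = 0.0245) and Spc25 (2.21, 0.0125) passed, and Cdk1 (1.82, 0.0534), Nek2, Smc4 and Spc24 did not. Spp1 (0.68 at P10, difference 2.97, adjusted p = 0.00279) and Lpl (-0.47 at P10, difference 3.34, adjusted p = 0.00279) also had the higher effect at 1 month.

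In the other direction, 10 of 25 glucocorticoid-inducible genes and metallothioneins and 9 of 31 acute phase genes had the lower effect at 1 month. Mt1 was higher in the knockout at P10 (0.99) and lower at 1 month (-2.25), with a difference of -3.25 (adjusted p = 0.000483). Il1r1 (0.32 at P10 and -2.77 at 1 month; difference -3.10, adjusted p = 0.000227) and Lpin1 (-0.015 and -3.57; difference -3.56, adjusted p = 0.000454) also had the lower effect at 1 month. By contrast the differences did not pass for Gstm3 (4.41 and 4.73, adjusted p = 0.964), Spink1 (3.58 and 3.39, adjusted p = 0.534) or Ly6d (4.42 and 5.52, adjusted p = 0.177; 0.0127 after median-ratio rescaling). The P10 knockout group mixes a library with Xist RNA and another without, which touches sex-biased genes such as Cyp3a41a and Sult2a2. Because the main fit pools the spread of both ages, this mix also enters the 1-month p-values of such genes.

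Set against the acute model, the difference passed for 645 genes (6.24%), 547 with the higher effect at 1 month (5.29%) and 98 with the lower (0.948%). The median difference was 0.33, which the test did not remove, so this split depends on it too. Of the 6 mitotic genes with a control mean of at least 1 TPM, Cdk1, Nek2, Cenpa, Spc25 and Smc4 had the higher effect at 1 month and Spc24 did not pass: Cdk1 was at 0.43 in the acute model (difference 1.92, adjusted p = 0.000347) and Spc25 at -1.02 (2.81, 5.63e-05). Ly6d (0.51; difference 4.99), Spink1 (0.66; difference 2.71) and Nupr1 (0.52; difference 3.03) showed the same, with adjusted p of 1.07e-09, 1.26e-05 and 1.86e-05. Rgs16 and Ciart rose in the acute model (2.16 and 1.69) and fell at 1 month, with differences of -5.76 and -4.19 (adjusted p = 3.85e-05 and 0.000245). Differences did not pass for Gstm3 (4.84 in the acute model, adjusted p = 0.759), Lgals1 (3.59, 0.84), Saa4 (-3.67, 0.478) and Slco1a1 (-2.96, 0.252), which moved in the same direction in both. The 2 models differ in age, in the way Cre was delivered and in their controls, which cannot be told apart from the time since deletion.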

How the data were processed

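RNA-seq of purified hepatocytes was analysed from a table of transcript TPM that the authors made with kallisto 0.46.0 after bcl2fastq, on GRCm38 (mm10), per the submitters' processing notes. The authors' deposited table of the 1-month comparison, made with DESeq2 (version not given in the sources used here), holds the mean signal of normalized counts, log2 fold changes with errors, a Wald score, p-values and adjusted p-values per gene; it served for side-by-side values only. How it was filtered is not given. Read depth is unknown, because TPM keep none.

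TPM were summed per gene, and 53229 of 54446 gene IDs matched GENCODE M21, from which gene types and positions were taken. Genes with a mean of 1 TPM or more over the 4 one-month libraries were fitted as log2(TPM + 1) with limma 3.58.1 (R 4.3.3; 8 libraries of the 1-month and P10 groups, 4 residual degrees of freedom, 8.89 prior at the median), with Benjamini-Hochberg adjustment and a threshold of 0.05; a fold change on this scale understates low genes. Differences from the acute model used a fit of all 14 libraries. Shares of transcripts within a gene were tested by diffSplice (limma) on transcripts of at least 1 TPM and 5% of the gene, with a share change of at least 10 points. Summaries used Python 3.11.15, pandas 2.3.3 and numpy 2.4.6, and the fits were tested on simulated data.

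Named genes were Srsf1; the 12 largest rises and falls among changed genes of at least 5 TPM without overlap, leaving out pseudogenes and unnamed models; up to 5 members per list by smallest p, with those against the list's direction and defining members; the 5 largest differences each way; and the 6 largest usage changes. Others were named after their values were seen, and some genes that the rule names are not reported here. The members, the 43 pathway lists and the 11 cell type marker lists were chosen with earlier results of these data known. Alternatives changed the pseudocount, the minimum, the scaling, the libraries and the pairing.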

Additional observations from a re-analysis of the deposited data

Results flagged for a closer look

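The effect of the knockout at 1 month and at postnatal day 10 (P10) differed most, by the limma test of the difference between the effects, for the genes named here. Differences are on log2(TPM + 1), relative to the median gene, as the effect at 1 month minus that at P10. The adjusted p-values belong to the limma test of the difference before the median was removed. The differences with the higher effect at 1 month were 7.08 for the sulfotransferase Sult2a2 (adjusted p = 0.000365; effects 3.07 at 1 month and -4.02 at P10), 5.49 for H19 (0.000477) and 5.27 for the cytochrome P450 Cyp3a41a (0.000915). They were 4.17 for Gm15611 (0.0117), whose own change at 1 month did not pass (0.109), and 4.04 for Gm42429 (0.00302), listed at 0 in both controls and at 24.6 and 6.21 TPM in the HKO libraries. Sult2a2 and Cyp3a41a differ between the sexes in mice, and the P10 knockout group mixes a library with Xist RNA and one without, whose part in the result was not tested.

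With the lower effect at 1 month, Hamp, which encodes the iron hormone hepcidin, differed by -8.02 (adjusted p = 3.96e-06): its effect was 7.96 at P10, while at 1 month it measured 909 and 457 TPM in control libraries and 504 and 723 TPM in HKO libraries and did not pass (adjusted p = 0.95). The metallothionein gene Mt2 differed by -4.49 (0.00037; effects -2.81 and 1.68). Mup7 differed by -4.22 (0.0386), a call lost after median-ratio rescaling (adjusted p = 0.144). The unnamed gene models Gm46223 (-3.96, adjusted p = 0.0234, 0.0877 after median-ratio rescaling) and Gm48275 (-3.95, 0.000227) complete these.

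Between 1 month and the acute knockout, the largest differences with the higher effect at 1 month were 6.02 for the pseudogene Rps13-ps1 (adjusted p = 2.38e-06), 4.99 for Ly6d (1.07e-09) and 4.40 for H19 (1.86e-05). Rps13-ps1 shares sequence with its parent gene and measured 1.76 and 0 TPM in control libraries and 59.03 and 86.8 TPM in HKO libraries. Gm13841 and Gm8210 each differed by 4.37 (5.5e-08) with the same values in all 4 libraries, listed at 0 in both controls, against 12.4 and 19.4 TPM with the knockout. With the lower effect at 1 month, Gm22235 differed by -6.14 (2.08e-05), Rgs16 by -5.76 (3.85e-05), Ciart by -4.19 (0.000245), Ddit4, a stress-induced inhibitor of mTOR, by -3.93 (0.0206) and Gm46223 by -3.74 (0.0124). Ddit4 rose in the acute model (3.84), while at 1 month its controls lay far apart, at 4.52 and 39.8 TPM, on both sides of the HKO libraries at 9.996 and 16.8 TPM. Rgs16 and Ciart vary with the time of day in liver, and sampling times are not given in the sources used here.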

How the results depend on the processing

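Of the 156 named genes that changed, none reversed under any alternative run, and Srsf1 passed under each; 16 lost their call after median-ratio rescaling, 40 with a minimum of 0.1 TPM, 24 in a fit of the 4 one-month libraries alone, and 23 to 53 without 1 library. The count of changed genes, 733 as reported, was 404 with a minimum of 5 TPM, 1694 after median-ratio rescaling, 1588 after quantile normalization, 3276 rescaled over coding genes, 2461 rescaled without mitochondrial genes, 2454 in the authors' deposited table and 670 to 995 without 1 library. Under the first 5 of these, in order, the higher genes (481) numbered 195, 826, 784, 3003 and 2198, and 404 to 602 without 1 library. The lower genes (252) numbered 868 after median-ratio rescaling, 804 after quantile normalization, 387 after median-ratio rescaling without HKO_1m replicate 1 (chosen after seeing the data), and from 134 without HKO_1m replicate 1 to 591 without HKO_1m replicate 2. Genes whose effect differed from P10 (283) numbered 619 after median-ratio rescaling and 205 to 1710 without 1 library; those that differed from the acute model (645) numbered 1740 and 296 to 2019. Genes with changed transcript usage (16) numbered 10 with a change of at least 20 points, 5 with transcripts of at least 10% of the gene, 30 with a pseudocount of 0.1, 4 in the 4 libraries alone and 12 to 39 without 1 library. The Ddit4 log2 fold change, which did not pass at 1 month (-0.10), was -1.54 without control_1m replicate 1 (adjusted p = 0.00439) and 1.34 without control_1m replicate 2 (0.0127), both called. A library left alone in its group was assumed to vary like the other groups. The cause of these shifts was not tested beyond what each alternative removes.

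The groups share replicate numbers, and deviations of same-numbered libraries correlated at 0.26 at 1 month and 0.062 at P10. These values cannot decide whether same-numbered samples were paired, and the main fit used no replicate block. With a replicate block 1388 genes changed (765 higher and 623 lower), 942 differed from P10 and 54 changed in usage, and none of the 156 named genes lost its call. The unit keeps no read depth, which limits low genes: their counting error is not known.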

Other observations

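Genes of zonation, the split of tasks along the liver lobule, changed in both directions. Of 21 tested pericentral genes 3 rose and 2 fell (1 and 2 of the 18 with a control mean of at least 1 TPM): Rhbg, an ammonium transporter, measured 0.622 and 0.615 TPM in control libraries and 2.86 and 7.08 TPM in HKO libraries (relative log2 change 1.82, SE 0.29, adjusted p = 0.00145), Slc1a4, a transporter of neutral amino acids, measured 0.203 and 0.204 against 1.53 and 2.91 TPM (1.42), and Cyp2a5 was the other rise, while Cyp2e1 and Cyp27a1 fell. All HKO values of Rhbg and Slc1a4 lay above the controls. After quantile normalization 7 pericentral genes rose and 1 fell, and rescaled over coding genes 9 rose and 2 fell. The Cyp2a5 log2 fold change was 0.99 without control_1m replicate 2, 2.19 without HKO_1m replicate 1 and 1.28 without HKO_1m replicate 2. Its call was lost in each of these fits. Glul, glutamine synthetase, which marks the innermost pericentral cells, measured 30.5 and 36.5 against 27.9 and 72.4 TPM, with overlapping groups and no call (adjusted p = 0.68). Of 24 periportal genes 2 rose and 3 fell (2 and 9 after median-ratio rescaling). Aldh1b1, a mitochondrial aldehyde dehydrogenase, measured 17.2 and 22.1 TPM in control libraries and 71.7 and 102 TPM in HKO libraries (relative log2 change 2.12, SE 0.27, adjusted p = 0.000261), and Cdh1, which encodes E-cadherin, measured 4.50 and 8.99 against 14.8 and 20.5 TPM (1.35), a call lost without control_1m replicate 1 (adjusted p = 0.137) or HKO_1m replicate 2 (0.0856). The lower ones were Asl, Arg1 and Hal, the enzyme that starts histidine breakdown (148 and 220.5 against 63.2 and 99.8 TPM). No periportal gene fell without control_1m replicate 2 or without HKO_1m replicate 1.

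Interferon-stimulated genes held few calls. Of 28 tested 3 rose and none fell, beside 4.65% and 2.44% of all genes; Ubd and Ifi27l2a passed the minimum only through the HKO libraries, and of the 26 with a control mean of at least 1 TPM 1 rose, beside 2.58% of all such genes. The list median was -0.052. Ifi27l2b, a small mitochondrial protein gene, measured 1.15 and 1.79 TPM in control libraries and 14.3 and 16.2 TPM in HKO libraries (relative log2 change 2.76, SE 0.20, adjusted p = 2.87e-06). Ubd, a ubiquitin-like modifier, measured 0.565 and 0.354 against 3.76 and 9.10 TPM (2.29), with the 2 HKO libraries well apart from each other. Ifi27l2a also passed (1.41), though not without HKO_1m replicate 1 (adjusted p = 0.141). Without control_1m replicate 1, 3 members of the list rose and 3 fell.

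Among 22 genes of iron handling 1 rose and 1 fell, near the 4.65% and 2.44% of all tested genes. Hmox1, heme oxygenase, measured 2.80 and 2.26 against 8.51 and 5.37 TPM (1.18) and did not pass without control_1m replicate 2 (adjusted p = 0.0946) or HKO_1m replicate 1 (0.158). Slc39a14, a transporter of iron, zinc and manganese, measured 67.7 and 69.6 TPM in control libraries and 32.4 and 35.2 TPM in HKO libraries (relative log2 change -0.96, SE 0.24, adjusted p = 0.021) and did not pass without control_1m replicate 1 (0.0786) or 2 (0.102).

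Some genes of proteins that hepatocytes secrete into plasma were lower. Of 35 tested complement and coagulation genes 3 fell, and 21 were lower in both HKO libraries, against 17.1% of all tested genes. Those 3 were F7, coagulation factor VII (41.6 and 39.5 against 19.9 and 20.5 TPM), C8b, a part of the membrane attack complex (116 and 128 against 57.5 and 68.8 TPM), and Masp1, a protease of the lectin pathway (21.4 and 21.98 against 9.01 and 11.1 TPM). The list median was -0.34, and -0.014 after quantile normalization. After median-ratio rescaling 9 fell, and without either control the count was 0. None of the 3 passed without control_1m replicate 1 (adjusted p = 0.102, 0.0897 and 0.053). Among 35 carriers and secreted proteins Serpina7, thyroxine-binding globulin, rose (1.77 and 2.98 against 5.58 and 8.31 TPM, 1.27), and Rbp4, Apoa2 and Fgl1 fell; none of these falls was called without control_1m replicate 2 or HKO_1m replicate 1. The direction of this list's median turned with the scaling, from -0.29 to 0.18 after quantile normalization, with 5 higher and 3 lower. The Serpina7 log2 fold change was 0.97 without control_1m replicate 1 and 0.99 without HKO_1m replicate 2, and its call was lost in both fits. That of Apoa2 lay between -0.62 and -0.70 with each 1-month library left out in turn, and its call was lost each time. Slc37a4, the glucose 6-phosphate transporter of glucose release, measured 106 and 118 against 54.6 and 56.7 TPM (-0.96) and did not pass without control_1m replicate 1 (adjusted p = 0.0515) or 2 (0.126).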
